A study of Sus scrofa with 22 samples.

Results

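Clade B serpins are the intracellular branch of the serpin family of protease inhibitors. In the LCM libraries of porcine endometrium, 8 of them were examined, SERPINB1, SERPINB2, SERPINB5, SERPINB6, SERPINB7, SERPINB8, SERPINB9 and SERPINB11, taken by name as a gene family. The family was chosen with earlier results of these data known. All 8 were among the 12401 genes listed for at least 1 cell type, 8 in luminal epithelium (LE), 7 in glandular epithelium (GE) and 7 in stroma (S). SERPINB11 was listed in LE and its level in GE and S was not analysed here. The libraries came from 8 prepuberal gilts (crossbreeds of German Landrace and Piétrain) whose ovulation had been synchronized with PMSG and hCG. The pregnant gilts had been inseminated with semen and carried filamentous conceptuses. The cyclic control gilts had received only the supernatant of centrifuged semen, and all were slaughtered on Day 12. LE and GE were represented by 4 pregnant and 4 control gilts and S by 3 and 3, with 1 library per gilt and cell type, so that the libraries of a group came from separate animals.

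Most clade B serpins lack a signal peptide and act inside the cell or after release from damaged or activated cells. An inhibitory serpin offers a protease its reactive centre loop as bait and, once cut, traps the enzyme in a covalent complex. The genes lie in chromosomal clusters that arose by duplication, and several are known from stratified epithelia, leukocytes and the female reproductive tract, where they restrain urokinase, cathepsins, granule proteases and proprotein convertases. Around Day 12 the pig conceptus elongates and secretes estrogens and cytokines onto the luminal epithelium to which it attaches.

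The 8 genes fell into the clusters known from other mammals (assembly Sscrofa11.1, every member on the minus strand). On chromosome 1 the order was SERPINB8 (157820641 to 157836922, gene ID 100156248), SERPINB2 (157871919 to 157886525, 100519286), SERPINB7 (157953872 to 157999242, 100152588), SERPINB11 (158015714 to 158030833, 100156623) and SERPINB5 (158167756 to 158195896, 100155836). On chromosome 7 lay SERPINB1 (1684212 to 1693313, 100155145), SERPINB9 (1723302 to 1732562, 100126851) and SERPINB6 (1755252 to 1776144, 106504299). SERPINB8 and SERPINB6 carry locus names in the annotation and were identified by the name of their transcripts, and the SERPINB6 locus is annotated there as a long noncoding RNA. No window of 50 exonic bases of any member was found in another gene, and no member's exons overlapped those of another gene.

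The sequence near the annotated starts of the chromosome 1 members is shown, 5′ to 3′ on the gene's strand, as read from the NCBI genome. Of these members SERPINB2, SERPINB7, SERPINB8 and SERPINB11 were called higher in pregnant LE, and SERPINB5 was not. Capitals mark the AP-1 motif (TGANTCA, searched on both strands, with no overlap with the other motifs searched), the binding sequence of the FOS and JUN family of factors. The stretches of SERPINB2 (chr1:157886526-157886775), SERPINB7 (chr1:157999243-157999492), SERPINB11 (chr1:158030834-158031083) and SERPINB5 (chr1:158195897-158196146) are the 250 bases before the start, and that of SERPINB8 (chr1:157836873-157836893) is the 21 bases around its motif just after the start.
SERPINB2: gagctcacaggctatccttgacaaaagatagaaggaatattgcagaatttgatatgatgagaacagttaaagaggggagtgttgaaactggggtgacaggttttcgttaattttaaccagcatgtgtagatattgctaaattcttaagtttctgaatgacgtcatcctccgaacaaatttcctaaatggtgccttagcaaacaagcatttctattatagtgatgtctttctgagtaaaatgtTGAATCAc
SERPINB7: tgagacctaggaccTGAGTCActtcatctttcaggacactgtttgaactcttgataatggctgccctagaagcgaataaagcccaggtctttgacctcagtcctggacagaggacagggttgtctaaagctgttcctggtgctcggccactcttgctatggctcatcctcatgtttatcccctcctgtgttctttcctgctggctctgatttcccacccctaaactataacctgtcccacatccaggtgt
SERPINB11: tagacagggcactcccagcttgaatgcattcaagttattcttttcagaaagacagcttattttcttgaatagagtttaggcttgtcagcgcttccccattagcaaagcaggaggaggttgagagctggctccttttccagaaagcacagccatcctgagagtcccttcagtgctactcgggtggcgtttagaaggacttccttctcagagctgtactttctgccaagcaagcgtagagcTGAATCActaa
SERPINB8: ggtgttcTGAGTCAccgccgg
SERPINB5: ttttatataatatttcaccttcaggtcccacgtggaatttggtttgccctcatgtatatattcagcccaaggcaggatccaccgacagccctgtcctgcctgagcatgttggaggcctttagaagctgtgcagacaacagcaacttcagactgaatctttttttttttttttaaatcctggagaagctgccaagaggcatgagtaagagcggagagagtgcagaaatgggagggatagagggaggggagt
Within 250 bases before to 50 bases after the start, the motif was present in 4 of the 5 chromosome 1 members, SERPINB2 (bases -8 to -2), SERPINB11 (-11 to -5), SERPINB7 (-236 to -230) and SERPINB8 (36 to 42 after the start). It was not in this window in SERPINB5 or in the 3 chromosome 7 members. Of all 19545 such windows in the genome 6.1% held it, and of the 10873 windows of genes listed in LE 4.6% did. The NF-kappa-B motif was found in the window of SERPINB1 alone (16.4% of all windows), and the STAT motif (TTCNNNGAA, 7.1% of all windows) in none of the 8. These matches describe letters in the genome, and binding was not measured.

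The libraries held between 893912 counts (pregnant LE of gilt 01) and 4020796 counts on listed genes, so that 3 counts, taken as the floor, corresponded to 0.703 to 3.61 counts per 1e6 library counts (CPM). All levels are given on 1 CPM scale, normalized across the 22 libraries by TMM. The labelled cell types were only partly separated by their defining markers. In the controls the fibroblast genes ran against the label of S, and the epithelial genes did not set S apart from LE. The summed level of 7 epithelial genes (such as EPCAM, CDH1 and KRT8) was 2865 to 3546 CPM in control LE and 2611 to 3175 CPM in control S, and that of 7 fibroblast genes (such as DCN, COL1A1 and VIM) was 11509 to 17169 CPM in control LE but 4650 to 8605 CPM in control S. No epithelial or fibroblast marker was at 0 in any library. In pregnant S the epithelial sum ranged from 1109 (gilt 01) to 4042 CPM (gilt 05) and the fibroblast sum from 8191 (gilt 05) to 59336 CPM (gilt 01). Control GE of gilt 02 stood apart with the lowest epithelial sum (759 CPM) and a fibroblast sum of 46019 CPM. Of the 16 leukocyte genes 6 were listed in each cell type, and the T cell, natural killer cell and neutrophil genes CD3E, NKG7, GZMB and MPO were not listed. The leukocyte sum was lower in pregnant than control LE (77.1 to 81.9 against 95.2 to 195 CPM) and higher in pregnant than control S (82.8 to 268 against 68.7 to 78.4 CPM), without overlap. Macrophage CD68 was higher in all pregnant GE libraries (log2 FC 1.71). The leukocyte gene PTPRC was lower in all of them (9.63 to 23.6 against 25.8 to 38.3 CPM), and the other leukocyte genes listed in GE overlapped. In LE, CD68 was likewise higher and PTPRC and ITGAM lower without overlap. PECAM1 and the smooth muscle genes ACTA2 and TAGLN were higher in all pregnant S libraries (log2 FC 2.06, 3.42 and 2.98). The endothelial genes VWF, CDH5, KDR and TEK overlapped in S, as did the smooth muscle gene MYH11. The mean of MYH11 was lower in pregnant S (124 against 185 CPM). None of the leukocyte, endothelial or smooth muscle genes was called. Pregnant LE of gilt 01 stood apart with a summed level of 3 smooth muscle genes of 5126 CPM, against 126 to 257 CPM in the other pregnant LE libraries, and the highest fibroblast sum in LE (20286 CPM). The part of these cells in the results was not tested.

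**Figure D1:**
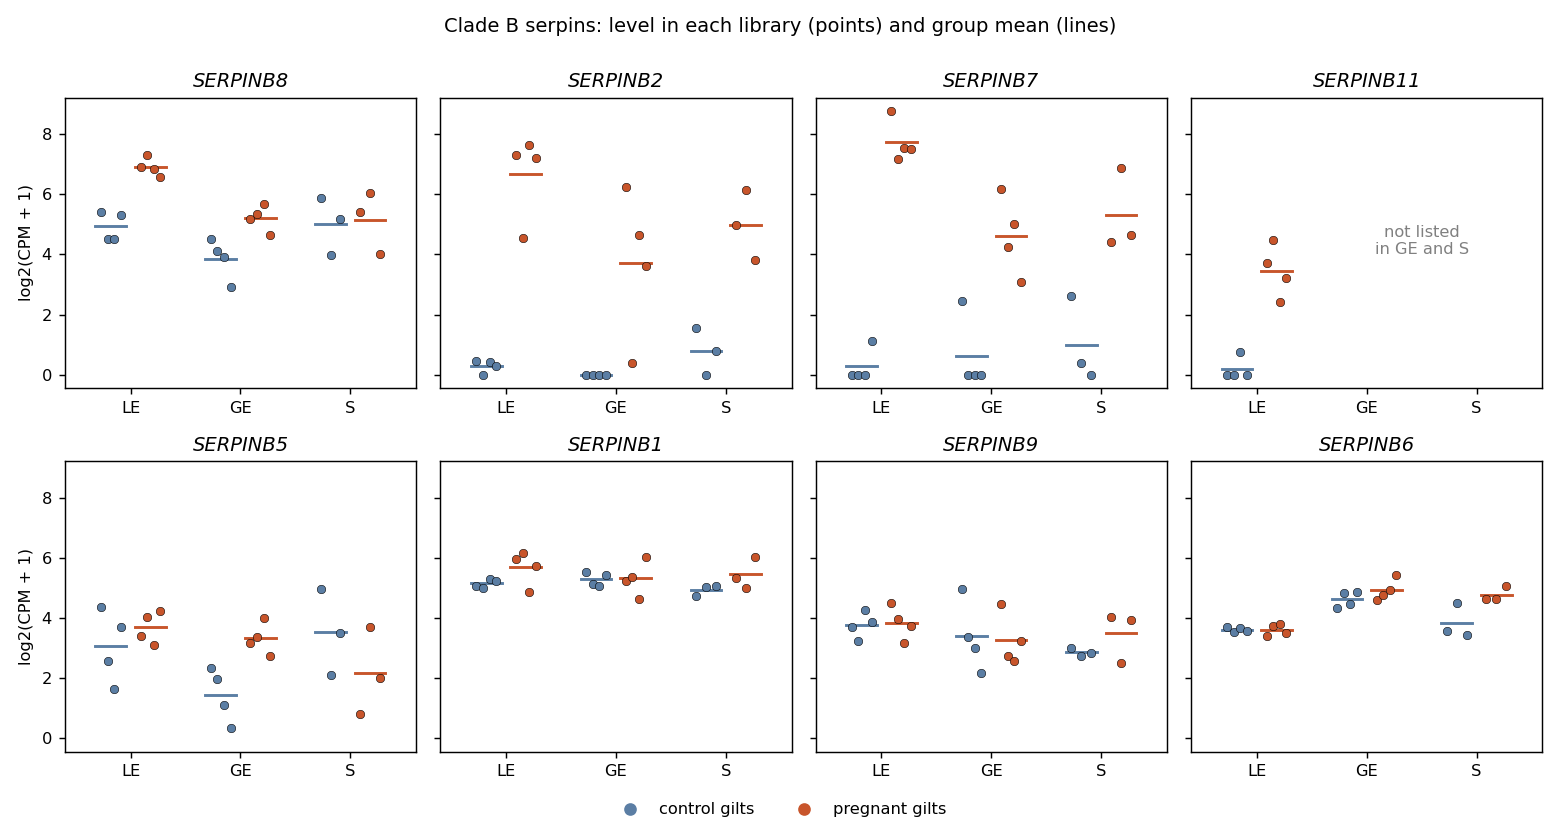
Level of each clade B serpin in every library as log2(CPM + 1), by cell type, with control gilts in blue and pregnant gilts in orange (horizontal lines are means of the plotted values). In LE, SERPINB2, SERPINB7 and SERPINB11 lay at or near 0 in the controls and above them in the pregnant gilts, whereas the libraries of SERPINB1, SERPINB9 and SERPINB6 overlapped between the states in LE and GE.

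The question put to each cell type was whether the RNA level differed between pregnant and control gilts (edgeR quasi-likelihood test). In LE, 4 of 8 members were called at a false discovery rate (FDR) below 0.01, and all 4 were higher in pregnant gilts (SERPINB2, SERPINB7, SERPINB11 and SERPINB8). Of the 11415 tested genes 10% were called, 6.33% higher and 3.71% lower. SERPINB2, SERPINB7 and SERPINB11 held only 3, 5 and 2 counts over the control LE libraries and could hardly have come out lower. The members were also chosen with earlier results of these data known. Their counts beside these shares thus describe the family and do not test it. Library size alone in place of TMM changed the split of all calls from 722 higher and 424 lower to 582 and 570, while the same count of members was called. In GE, 0 of 7 members passed the unadjusted p value of 0.0021 used for GE and S (0.694% of 11676 genes did, 0.574% higher and 0.12% lower). With the same test 4 of the 7 had an unadjusted p value below 0.05 (8.09% of all genes), and DESeq2 called 3 (2.06% of all genes). In S, 1 of 7 members passed (SERPINB2), against 1.47% of 11532 genes (0.425% higher, 1.05% lower), 3 of the 7 had an unadjusted p value below 0.05 (12.5% of all genes), and DESeq2 called 2 (4.44%). The median log2 fold change (FC) of the members was 1.27 in LE, 1.35 in GE (also with SERPINB2 at its lower bound) and 0.88 in S, compared with 0.0076, -0.021 and 0.079 over all tested genes.

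Every pregnant library lay above every control library for 4 of 8 members in LE (14.1% of all genes), 4 of 7 in GE (2.81%) and 3 of 7 in S (7.26%). These were SERPINB2, SERPINB7, SERPINB8 and SERPINB11 in LE, SERPINB2, SERPINB7, SERPINB8 and SERPINB5 in GE, and SERPINB2, SERPINB7 and SERPINB6 in S. For SERPINB2 in GE the order rested on 1 count in pregnant gilt 03, below the floor, against 0 in the controls, so that 3 of 7 remain in GE without it. No member had all its pregnant libraries below the controls. The limits given above for few control counts and for the choice of members hold here too.

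**Figure D2:**
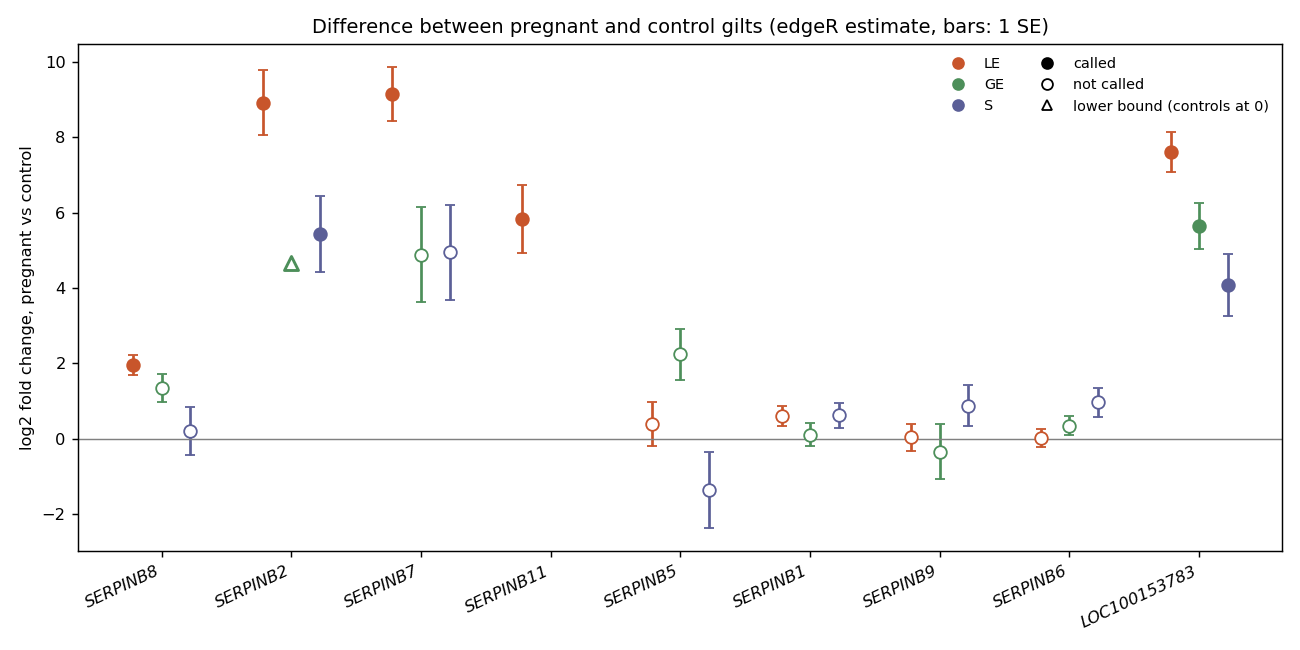
Log2 FC between pregnant and control gilts in LE, GE and S for the 8 members and LOC100153783 (edgeR estimates, bars 1 SE, filled points called). The triangle is the lower bound for SERPINB2 in GE, where no control library had a count. The largest values belong to SERPINB7 (9.15) and SERPINB2 (8.92) in LE.

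SERPINB2 is plasminogen activator inhibitor 2, which inhibits urokinase and is known as an early stress and inflammation response gene. In LE it was at 0.376, 0, 0.353 and 0.234 CPM in control gilts 02, 04, 06 and 13, and at 157, 22.3, 196 and 148 CPM in pregnant gilts 01, 03, 05 and 14. A gene at the detection limit in the controls was thus found in every pregnant LE library, with gilt 03 well below the other pregnant gilts. The controls held 3 counts in all and the pregnant libraries 1275, which after scaling for library depth gave a ratio of 627 with a counting interval of 214 to 3043 (95%, exact, counting error only). The log2 FC was 8.92 (SE 0.86, FDR 0.000128).

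In GE, SERPINB2 had no count in any control library and was at 75.0, 0.313, 24.1 and 11.3 CPM in pregnant gilts 01, 03, 05 and 14. Gilt 03 was thus the lowest pregnant gilt in both epithelia, with 1 count in GE. The mean of 27.7 CPM was at least 25.3-fold higher than a floor of 3 counts per control library, but the unadjusted p value was 0.00623 (edgeR, FDR 0.406). Without gilt 03 it was 0.000823, past the threshold. In S, SERPINB2 was at 1.95, 0 and 0.735 CPM in control gilts 02, 04 and 13 and at 30.3, 69.3 and 13.2 CPM in pregnant gilts 01, 05 and 14, without overlap. The log2 FC in S was 5.43 (SE 1.02, unadjusted p value 0.000941, FDR 0.116 in edgeR). Without gilt 05 the p value was 0.00339, without gilt 04 0.00226 and without gilt 13 0.00602, each above the threshold. The ranges of pregnant LE, S and GE overlapped one another.

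The epithelial marker sum in S followed the order of SERPINB2 only in part. Pregnant gilt 05 had the highest sum (4042 CPM) and the highest SERPINB2. Gilts 01 (1109 CPM) and 14 (2163 CPM) had sums below all 3 controls and more SERPINB2 than any of them. The markers themselves differed by state. KRT8 was at 775 to 924 CPM in control S and 203 to 378 CPM in pregnant S, and KRT7 and KRT18 were also lower without overlap. In S, 1 of the 7 markers was called lower (1.05% of all genes) and 0 higher (0.425%). In LE, 2 of the 7 were called higher (6.33% of all genes) and 3 lower (3.71%). The sums of control and pregnant S can thus not be compared as amounts of epithelium. The part of epithelial RNA in the S result was not tested, and in such samples more cells of a type and more RNA per cell cannot be told apart.

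SERPINB8 inhibits furin, the convertase that activates many secreted precursors. It was the only member of the chromosome 1 cluster with a clear level in every control library. In LE it was at 41.7, 22, 21.9 and 38.9 CPM in control gilts 02, 04, 06 and 13, and at 120, 157, 113 and 94.1 CPM in pregnant gilts 01, 03, 05 and 14. The lowest pregnant library was above the highest control. The mean rose from 31.1 ± 10.7 to 121 ± 26.2 CPM (SD, n = 4 per group), and the fitted log2 FC was 1.95 (SE 0.27, FDR 0.000832 in edgeR).

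In GE, SERPINB8 was lower, at 6.57 to 21.9 CPM in the 4 controls and 24.1 to 50.4 CPM in the 4 pregnant gilts. These groups did not overlap, but the difference was not past the threshold (log2 FC 1.35, SE 0.38, unadjusted p value 0.0064 in edgeR), and it passed without gilt 02 (p value 0.00199). In S the groups overlapped, with 14.8 to 57.3 CPM in the 3 controls and 15.0 to 64.6 CPM in the 3 pregnant gilts (log2 FC 0.21, SE 0.64, p value 0.756 in edgeR). Pregnant LE stood above all other groups without overlap, and the groups next to each other below it overlapped.

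SERPINB7, also called megsin, is known from kidney mesangium and the granular layer of the skin, where it restrains kallikrein-type proteases. Its fitted log2 FC in LE was the largest of the family, close to that of SERPINB2 (8.92, SE 0.86). The ratio of the pooled counts was higher for SERPINB2 (627), so that no order between the 2 genes was shown. In LE SERPINB7 had no count in control gilts 02, 04 and 06 and 1.17 CPM (5 counts) in gilt 13. It was at 437, 145, 184 and 180 CPM in pregnant gilts 01, 03, 05 and 14. Every pregnant library was thus far above the highest control, and gilt 01, the library with the fewest counts and the highest smooth muscle sum in LE, was the highest. The log2 FC was 9.15 (SE 0.71, FDR 5.18e-05 in edgeR), and the ratio of the pooled counts, scaled in the same way, was 531 with a counting interval of 227 to 1637.

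In GE, SERPINB7 was at 4.46, 0, 0 and 0 CPM in control gilts 02, 04, 06 and 13 and at 70.9, 18.1, 31.2 and 7.44 CPM in pregnant gilts 01, 03, 05 and 14. In S it was at 5.07, 0.303 and 0 CPM in control gilts 02, 04 and 13 and at 20.2, 116 and 23.9 CPM in pregnant gilts 01, 05 and 14. The groups overlapped in neither cell type, and neither difference passed the threshold. The log2 FC was 4.89 (SE 1.26, unadjusted p value 0.00366, FDR 0.333) in GE and 4.95 (SE 1.26, p value 0.0052, FDR 0.194) in S. Gilt 02 held most SERPINB7 counts of the controls in both, 11 of 11 in GE and 13 of 14 in S. Without gilt 02 SERPINB7 passed the threshold in GE (p value 0.00053) and in S (0.00144). Pregnant LE was above pregnant S without overlap, pregnant S and GE overlapped, and both were above all controls.

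SERPINB11 is an epithelial serpin about whose proteases little is known. In LE it had no count in control gilts 02, 04 and 13 and 2 counts (0.706 CPM) in gilt 06. In pregnant LE it was at 12.0, 21.2, 4.32 and 8.23 CPM in gilts 01, 03, 05 and 14, which rest on 10 to 40 counts per library. It was thus low but present in every pregnant library, and the groups did not overlap. The log2 FC was 5.83 (SE 0.90, FDR 0.00156 in edgeR), and the ratio of the pooled, depth-scaled counts was 66.4 with a counting interval of 17.8 to 556. The call was lost when counts were thinned to the smallest library (FDR 0.0123) and when only the 6 gilts with an S library were used (FDR 0.0101).

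SERPINB5 (maspin) does not inhibit proteases in the usual way and is known as an epithelial gene with roles in adhesion and migration. It was the member of the chromosome 1 cluster farthest from the others, 136.9 kb beyond SERPINB11. In LE the ranges overlapped, 2.12 to 19.9 CPM in the 4 controls and 7.71 to 18.1 CPM in the 4 pregnant gilts (log2 FC 0.40, SE 0.58, FDR 0.665 in edgeR). In GE it was at 4.05, 2.98, 1.14 and 0.274 CPM in control gilts 02, 04, 06 and 13 and at 8.11, 9.38, 15.0 and 5.67 CPM in pregnant gilts 01, 03, 05 and 14. There the groups did not overlap, with a log2 FC of 2.24 (SE 0.67, unadjusted p value 0.00886, FDR 0.44), which did not pass the threshold. In S it was at 3.33 to 30.4 CPM in the 3 controls and 0.776 to 12.1 CPM in the 3 pregnant gilts (log2 FC -1.36, unadjusted p value 0.215 in edgeR). SERPINB5 was thus the only member with a negative estimate in S, and the ranges overlapped. The fibroblast marker sum was 4650 to 8605 CPM in control S and 8191 to 59336 CPM in pregnant S. The part of cell content in this estimate was not tested.

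The chromosome 7 members inhibit proteases of leukocyte granules. SERPINB1 inhibits neutrophil elastase, cathepsin G and proteinase 3, and protects the cells that make them. In LE it was at 32.7, 31.0, 38.5 and 36.8 CPM in control gilts 02, 04, 06 and 13 and at 61.4, 70.6, 28.4 and 52.6 CPM in pregnant gilts 01, 03, 05 and 14. Pregnant gilt 05 lay below all 4 controls and the other pregnant gilts above them, and without gilt 05 the log2 FC was 0.81, still not called (in all gilts 0.59, SE 0.26, FDR 0.135 in edgeR). In GE the level was 32.7 to 45.4 CPM in the controls and 24.1 to 64.8 CPM in the pregnant gilts, and in S 25.7 to 32.3 CPM and 31.1 to 64.1 CPM. SERPINB1 was the member with the smallest ratio between its highest and lowest group mean, with means from 30.0 (control S) to 53.3 CPM (pregnant LE).

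SERPINB9 inhibits granzyme B and is known to protect lymphocytes and endothelial cells. Its group means lay between 6.34 (control S) and 14.2 CPM (pregnant LE), and no difference between pregnant and control gilts passed (log2 FC 0.039 in LE, -0.34 in GE and 0.88 in S, FDR 0.949, 0.924 and 0.574 in edgeR). The highest levels within a cell type were those of gilt 01 in LE (21.7 CPM), of gilts 02 and 01 in GE (30.4 and 21.3 CPM) and of gilt 01 in S (15.5 CPM). These were also the libraries with the highest summed level of 5 blood endothelial genes in their cell type, 1403 CPM in LE, 1162 and 938 CPM in GE and 1742 CPM in S. Pregnant S of gilt 14, however, had 14.4 CPM of SERPINB9 at an endothelial sum of only 251 CPM. The part of vessels in the SERPINB9 level was not tested.

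SERPINB6 inhibits cathepsin G and trypsin-like enzymes. It was the member whose GE libraries lay above its LE libraries, without overlap, in control as in pregnant gilts. In LE it was nearly the same in all libraries, 10.6 to 12.0 CPM in the controls and 9.64 to 13 CPM in the pregnant gilts. In GE it was at 19.5, 27.3, 21 and 28.5 CPM in control gilts 02, 04, 06 and 13 and at 23.3, 26.6, 29.4 and 42.2 CPM in pregnant gilts 01, 03, 05 and 14. In S it was at 10.9, 21.5 and 9.92 CPM in control gilts 02, 04 and 13 and at 24.1, 24.1 and 32.5 CPM in pregnant gilts 01, 05 and 14. The S groups did not overlap, but the difference was not called (log2 FC 0.97, SE 0.38, unadjusted p value 0.0374, FDR 0.365 in edgeR). The fibroblast marker sum was 4650 to 8605 CPM in control S and 8191 to 59336 CPM in pregnant S. The part of cell content in the S levels was not tested. Since the locus is annotated as noncoding, these counts are transcript levels that need not stand for protein.

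**Figure D3:**
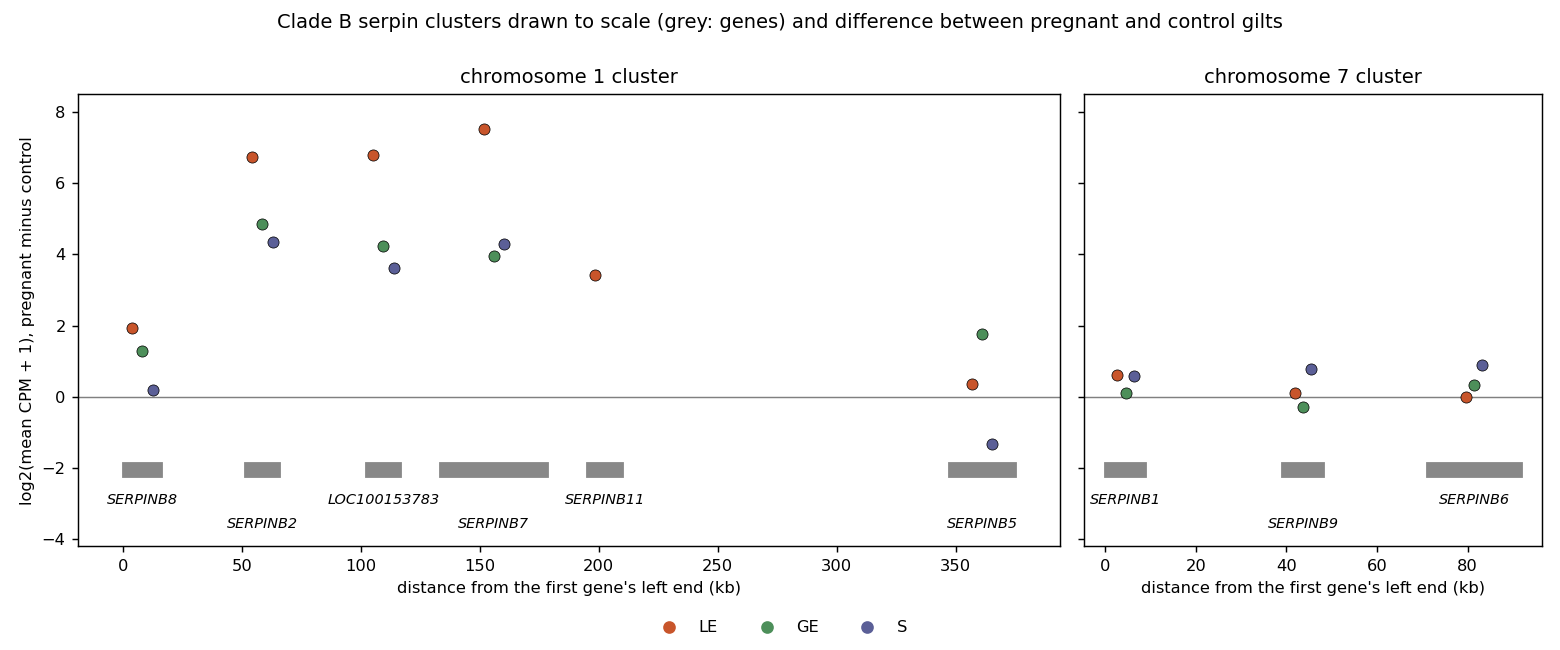
The chromosome 1 and chromosome 7 clusters to scale (grey bars, distance in kb from the left end of the first gene), with the difference in log2(mean CPM + 1) between pregnant and control gilts in LE, GE and S above each gene. The neighbours SERPINB2, LOC100153783 and SERPINB7 had the largest differences (6.73, 6.80 and 7.52 in LE), whereas the chromosome 7 genes lay between -0.30 and 0.88.

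Between SERPINB2 and SERPINB7 the annotation places 1 further clade B gene, LOC100153783 (157922639 to 157937650), whose product is named ovalbumin after the egg white serpin of birds. Of the 7 other clade B genes of the annotation it was the only one listed. It was higher in all 3 cell types, and in none of them did the groups overlap. In LE it was at 0.376, 0.816, 0 and 2.34 CPM in control gilts 02, 04, 06 and 13 and at 234, 271, 198 and 131 CPM in pregnant gilts 01, 03, 05 and 14 (log2 FC 7.62, SE 0.53, FDR 2.83e-05 in edgeR). In GE it rose from at most 0.994 CPM to 15.2 to 36.0 CPM (log2 FC 5.65, SE 0.61, unadjusted p value 6.93e-06, FDR 0.0405), and in S from 1.82 to 3.90 CPM to 13.2 to 93.7 CPM (log2 FC 4.07, SE 0.82, p value 0.0015, FDR 0.127). The S call was lost without gilt 02, 04 or 13 (p values 0.00519, 0.00814 and 0.00832). The nearest listed genes outside the clusters were not called in any cell type. On chromosome 1 these were TMX3 (3789.5 kb away), DSEL (2883.2 kb), VPS4B (37.1 kb) and KDSR (92.6 kb). On chromosome 7 they were GMDS (398.6 kb away), WRNIP1 (16.3 kb), NQO2 (16.6 kb) and RIPK1 (65.0 kb). Among these genes GMDS came closest, with a log2 FC of -1.05 in LE (SE 0.29, FDR 0.0253). Over all genes 10% were called in LE, 0.694% in GE and 1.47% in S. So few genes at these shares do not show where the differences end along a chromosome.

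Whether members differ in level between cell types of the same state was tested in a joint fit of the 22 libraries with the 10643 genes common to the 3 tables, at an FDR below 0.01. In pregnant gilts LE and GE differed for 2 of 7 members (9.56% of all genes, 4.5% higher in LE and 5.06% lower). SERPINB8 was higher in LE (121 against 37.3 CPM, log2 difference 1.69, SE 0.43, FDR 0.00973) and SERPINB6 lower in LE (11.3 against 30.4 CPM, log2 difference -1.41, SE 0.26, FDR 0.00124). The SERPINB8 call was lost when any gilt other than gilt 02 was left out, whereas SERPINB6 was called each time. With the gilt as block, 4 of 7 members were called (14.2% of all genes), with SERPINB7 (log2 difference 3.10, FDR 0.00368) and SERPINB2 (2.79, FDR 0.00608) now past the threshold as higher in LE. Without the block SERPINB7 was at 2.90 (SE 0.85, FDR 0.0206) and its LE and GE libraries did not overlap, whereas those of SERPINB2 did. LOC100153783 was higher in LE in both fits (log2 difference 2.84, SE 0.53, FDR 0.00151 without the block), a call that was lost without gilt 03 (FDR 0.0171).

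In control gilts no member passed between LE and GE (0.15% of genes), LE and S (0% of genes) or GE and S (0%). At an unadjusted p value below 0.05 there were 3, 0 and 3 of 7 members, against 21.2%, 3.77% and 11.4% of all genes. DESeq2 called 1, 0 and 0 members, against 4.49%, 0.0094% and 0.338% of all genes. The member nearest to the threshold was again SERPINB6, lower in control LE than in control GE without overlap (log2 difference -1.09, SE 0.25, FDR 0.0222). In pregnant gilts no member passed between LE and S (0.893% of genes, 0.094% higher in LE and 0.799% lower) or GE and S (0%). At an unadjusted p value below 0.05 there were 3 and 0 of 7 members, against 26.6% and 2.54% of all genes. DESeq2 called 1 and 0 members, against 6.79% and 0% of all genes. SERPINB6 was nearest here too, with 11.3 CPM in pregnant LE and 26.9 CPM in pregnant S (log2 difference -1.24, SE 0.27, FDR 0.0132, no overlap), and it was called without gilt 04. With the gilt as block, no member was called in these contrasts either (2.5% of genes between pregnant LE and S, 0% in the others).

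Whether the difference between pregnant and control gilts itself differed between cell types was tested by the interaction in the same fit. No member passed (0% of all genes for each of the 3 contrasts). DESeq2 called 0 members too, against 1.04% (LE and GE), 0.197% (LE and S) and 0% (GE and S) of all genes. No difference in log2 FC between cell types was thus shown for a member. An unadjusted p value below 0.05 was reached by 1 of 7 members between LE and GE (SERPINB7, 0.0415), by 3 between LE and S (SERPINB8 0.0141, SERPINB6 0.0301 and SERPINB7 0.0378) and by 1 between GE and S (SERPINB5, 0.00669), where 12.5%, 10.8% and 6.05% of all genes reached it. For SERPINB5 the estimate was 3.62 on the log2 scale (SE 1.19, FDR 0.786), from a positive estimate in GE and a negative one in S. For SERPINB7 the estimate between LE and GE was 4.26 and without gilt 02 -0.60, that gilt having held all control GE counts. With the gilt as block no member passed either, against 0.395% (LE and GE), 0.0188% (LE and S) and 0% (GE and S) of genes.

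**Figure D4:**
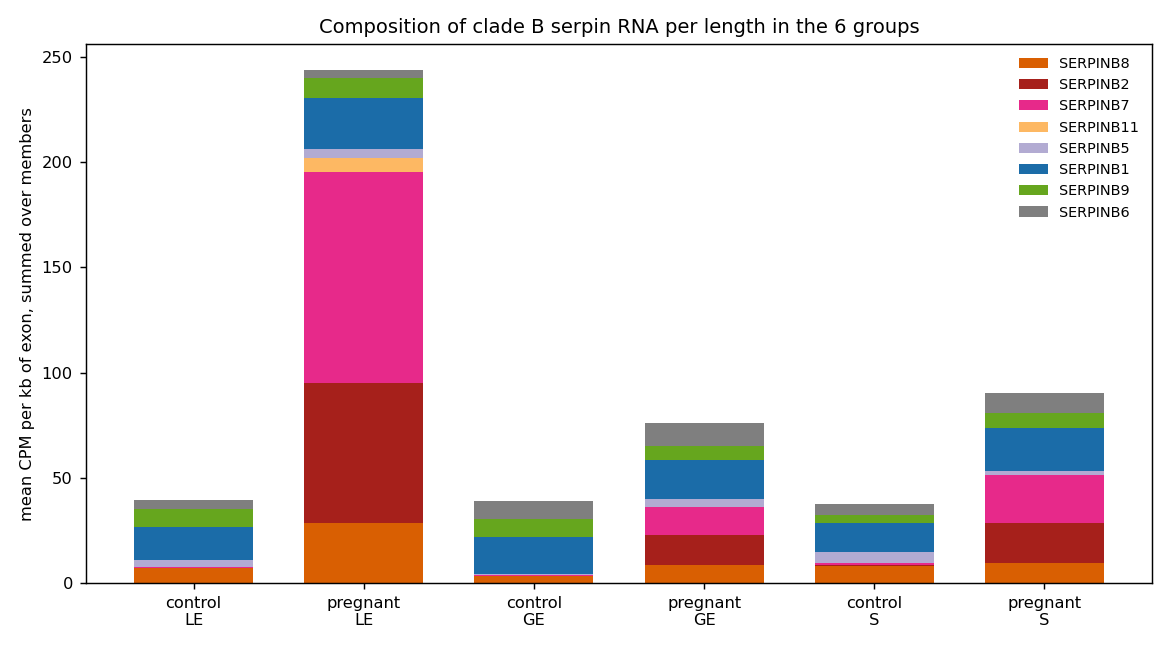
Mean level per kb of exon, summed over members, in the 6 groups (stacked bars, 1 colour per gene, CPM per kb). SERPINB1 made up the largest share in the 3 control groups, and SERPINB7 and SERPINB2 together most of pregnant LE. LOC100153783 is not included.

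Per kb of exon, which allows levels of different genes to be compared, SERPINB1 ranked highest in all control groups. It took 39.9% of the summed level of the members in control LE (15.8 CPM per kb), 45.1% in control GE (17.6) and 36.2% in control S (13.6). In control LE and control GE its lowest library was above the highest of the gene next in order (SERPINB9 in LE, SERPINB6 in GE), although SERPINB9 reached into its range in GE, and in control S it overlapped with SERPINB8. SERPINB7, SERPINB2 and, in LE, SERPINB11 ranked last in the controls. In pregnant LE, SERPINB7 came first of the members with 41.0% (100 CPM per kb) and SERPINB2 next with 27.4% (66.7 CPM per kb). The ranges of neighbours in this order overlapped throughout. In pregnant GE, SERPINB1 was still first with 24.9% (18.9 CPM per kb), followed by SERPINB2 with 18.6% and SERPINB7 with 17.7%. In pregnant S, SERPINB7 (24.9%), SERPINB1 (22.5%) and SERPINB2 (21.2%) were close together and overlapped. Summed over the members listed in each cell type (8 in LE, 7 in GE and 7 in S), the level differed in range between the states. It was 77.0 to 119 CPM in the control and 458 to 829 CPM in the pregnant libraries of LE. In GE it was 75.9 to 126 and 140 to 271 CPM, and in S 77.6 to 138 and 166 to 321 CPM.

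Genes of the proteases and partners of these serpins were examined as lists. Of 14 proteases that clade B serpins are known to inhibit, 6 were listed in each cell type. In LE 1 of the 6 was called, where 10% of all genes were, namely CTSV, a lysosomal cysteine protease, which rose from 81.7 ± 5.06 to 191 ± 29.6 CPM (SD, n = 4 per group, FDR 0.000698 in edgeR). FURIN, the enzyme inhibited by SERPINB8, was at 151 ± 40.7 CPM in control and 158 ± 28.9 CPM in pregnant LE (SD, n = 4 per group) and was not called. Neutrophil elastase (ELANE), PRTN3, CTSG, GZMB, KLK7 and KLK8 were not listed. Of 9 genes of plasminogen activation, 8 were listed in LE and 1 was called there (10% of all genes), the urokinase receptor PLAUR (3.74 to 13.5 CPM, log2 FC 1.85, SE 0.39, FDR 0.00767). Urokinase itself (PLAU) had a log2 FC of 0.22 in LE (SE 0.40) and was not called. Of 18 serpins of other clades 5 were listed in each cell type and 0 were called. Over all genes 10% were called in LE, 0.694% in GE and 1.47% in S, so that 0 of 5 is near these shares. Among the serpins of other clades with an unadjusted p value below 0.05 in edgeR were SERPINE2 (log2 FC 1.97) and SERPINH1 (0.67) in LE and SERPING1 (2.20) and SERPINF1 (1.92) in S. Of 18 genes of squamous differentiation 3 to 4 were listed and 0 were called, again near these shares of all genes. The estimates in LE had both signs, negative for EVPL (log2 FC -0.91, FDR 0.0211) and PPL (-1.12, FDR 0.0364) and positive for SFN (0.76, FDR 0.0418) and KRT10 (1.01, FDR 0.0944).

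Across the 22 libraries the log2 CPM of SERPINB2 and SERPINB7 were the most alike of all pairs of members (Pearson r = 0.92), and those of SERPINB8 and SERPINB6 the most opposed (r = -0.51). These values describe libraries that share gilts and state. By the same measure the non-serpin genes most like SERPINB7 were DUSP4 (r = 0.97), S100A12 (0.96) and S100A8 (0.95), those most like SERPINB2 were LOC100519934 (0.95), LOC100620265 (0.95) and LAMB3 (0.93), and those most like SERPINB8 were B4GALT5 (0.94), VTCN1 (0.93) and INPP1 (0.92). SERPINB6 was most like ST6GALNAC2 (0.94), TROVE2 (0.94) and RAB3B (0.93), and SERPINB9 most like MARVELD1 (0.87), the endothelial nitric oxide synthase NOS3 (0.87) and PTPRS (0.83). The highest values were lower for SERPINB1 (DCPS 0.83, MAVS 0.78, L3MBTL2 0.74) and SERPINB5 (SRXN1 0.83, S100A2 0.81, SYCP2 0.80). SERPINB11, over its 8 LE libraries, was most like RAB4A, AVL9 and UGT2B31 (0.98 to 0.99). With Spearman's rho at most 1 of the 3 genes was shared for each member.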

How the data were processed

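LE, GE and stroma cells were captured by LCM after Cresyl violet staining. Libraries were prepared from little RNA with the Ovation SoLo system and read from a single end. Per the methods of the study, the authors trimmed adapters and the first 5 bases, aligned with Hisat2 (Sscrofa 11.1, NCBI annotation), collapsed PCR duplicates through 8 random adapter bases and kept genes above a CPM cutoff. The deposited values, in 1 table for each cell type, are whole-number read counts per gene ID without normalization. How reads were counted, whether strand was used and the height of the cutoff are not given in the sources used here. A gene absent from a table was not taken as 0 in any test. Sums over members hold only those listed, so that SERPINB11 adds to the sums of LE alone.

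Each table was fitted in edgeR 4.0.16 (R 4.3.3) with TMM, estimateDisp and the quasi-likelihood F test on all its genes. Thresholds were those of the study, in LE an FDR (Benjamini-Hochberg) below 0.01, in the other cell types a raw p value under 0.0021. A joint fit of 6 groups gave contrasts between cell types and interactions. SE is the absolute log2 FC divided by the square root of F. CPM were taken over the TMM-scaled total of the joint table. Ratios of pooled counts were scaled by the summed effective library sizes. Intervals and floors cover counting error only. The fits were tested on simulated counts with 200 changed genes. Libraries with the same gilt number come from the same animal, and their deviations from group means correlated with a median of 0.257 (LE and GE, above 0.1 in 6 of 8 gilts), 0.314 (LE and S, 6 of 6) and 0.468 (GE and S, 5 of 6), against -0.0754, -0.138 and -0.188 between gilts. Since deviations from a group mean cancel out, the negative values between gilts largely follow from those within gilts and are no separate comparison. Alternatives were RLE factors, library size alone, filterByExpr, a minimum of 10 counts per library, other tests (edgeR exact and likelihood ratio, DESeq2 1.42.0), an FDR below 0.05, thinning to the smallest library, fits of 2 cell types or 6 gilts, Spearman correlation, the gilt as block, and omission of each gilt.

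The members and lists were chosen with earlier results of these data known. The named genes are the members, the other listed clade B gene, 2 listed genes on each side of a cluster, 3 genes outside the family most correlated with each member (log2 CPM, prior count 2), and of each list the called genes with up to 3 others of highest level. Further list genes were named after their values were seen. All 12401 listed IDs matched the annotation. Promoter sequences were read from the NCBI genome. Protein sequences were not used here. Values of 1 gene of the lists are not reported here.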

Additional observations from a re-analysis of the deposited data

Results flagged for a closer look

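In the 33 groups of 4 libraries examined for a member or LOC100153783, 4 held a library whose gap to the nearest other, as a share of the group's range, exceeded Dixon's critical value, which chance exceeds in about 1 in 20 groups. In 3 of them the other control libraries had no count. They were SERPINB11 in control LE (share 1, gilt 06 at 0.706 CPM), SERPINB7 in control LE (share 1, gilt 13 at 1.17 CPM) and SERPINB7 in control GE (share 1, gilt 02 at 4.46 CPM). The other was SERPINB7 in pregnant LE (share 0.868), where gilt 01, the library with the fewest counts and the highest smooth muscle sum in LE (5126 CPM), was at 437 CPM and the next at 184 CPM. SERPINB7 was called in LE whichever gilt was left out.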

How the results depend on the processing

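Of 746 values of single genes under an alternative, 673 kept their direction and side of the threshold, 22 lost a call, 34 gained one and 17 changed sign. In LE, 4 members were called under every alternative except a minimum of 10 counts (1 of the 3 members that could be tested), thinning and the 6 gilts with an S library, where SERPINB11 was lost. In GE the count of 0 became 3 with DESeq2, 4 with the exact and 4 with the likelihood ratio test, 1 with 6 gilts and 0 to 2 when a gilt was left out (2 without gilt 02, and SERPINB2 passed without gilt 03). In S the count of 1 became 0 at an FDR below 0.05 and 0 with a minimum of 10 counts (which left out SERPINB2 itself), 2 with DESeq2, the exact test, the likelihood ratio test and thinning, and 0 to 2 when a gilt was left out (changed without gilts 02, 04, 05 and 13). Between LE and GE in pregnant gilts, the count of 2 became 1 with RLE factors or library size alone, 0 with a minimum of 10 counts (which left out SERPINB6), 4 with the gilt as replicate block and 1 to 2 when a gilt was left out. The block changed no other count of members called. Between LE and S in pregnant gilts, the count of 0 became 1 with RLE factors, library size alone and DESeq2, 2 at an FDR below 0.05 and 0 to 1 without a gilt, and between LE and GE in control gilts 1 at an FDR below 0.05 and with DESeq2. For pregnant against control gilts no block could be fitted because each gilt had 1 state.

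The sign changes concerned differences that were not called. SERPINB9 in LE was at -0.11 with library size alone, -0.051 with a minimum of 10 counts, -0.0080 with thinning and between -0.18 and 0.26 without a gilt. SERPINB6 in LE was at -0.13 with library size alone and between -0.057 and 0.074 without a gilt. SERPINB1 in GE was at -0.18 with thinning and between -0.20 and 0.27 without a gilt, and SERPINB5 in LE was at -0.016 with 6 gilts. Leaving out a gilt gave -0.99 to 0.61 for SERPINB9 in GE, -0.30 to 0.74 for SERPINB8 in S and -0.60 to 7.88 for the interaction of SERPINB7 between LE and GE. Library size alone moved the median log2 FC of all genes in LE from 0.0076 to -0.14. Over all genes, the 1146 calls in LE became 2182 with DESeq2, 1990 with the exact and 2072 with the likelihood ratio test, 2557 at an FDR below 0.05, 647 with thinning and 435 with 6 gilts. The 81 in GE became 241, 174 and 185 with these tests, 2 at an FDR below 0.05, 50 with a minimum of 10 counts and 35 with 6 gilts, and the 170 in S became 512, 428, 463 and, at an FDR below 0.05, 29. The causes were not tested. The floor of the control libraries was 0.703 to 1.49 CPM, and levels below a library's floor could not be told from 0.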
